A study of Homo sapiens with 48 samples.

Results

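The 10 genes described here act in triglyceride synthesis and lipid droplet handling and were followed in AMO1, a human plasma cell tumour line, after inducible silencing of IRE1 or of its downstream transcription factor XBP1. The members were taken from the deposited count table by gene symbol, and all 10 were found among its 58302 genes: DGAT1, DGAT2, SLC27A1, GPAT3, GPAT4, AGPAT2, PLIN2, PLIN3, PNPLA2 and LIPE. DGAT2 and SLC27A1 were included because they rose after IRE1 silencing relative to XBP1 silencing, so their responses are described here without a test. The other 8 members were included for their function and were tested.

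The RNA-seq data came from 4 clonal lines, each carrying shRNAs that doxycycline (Dox, 0.2 µg/ml) switches on: clones 1 and 3 with shIRE1 and clones 1 and 18 with shXBP1. Cells were collected untreated (0 h) and after 24, 48 and 72 h of Dox, with 3 cultures per clone and time, giving 16 groups and 48 libraries of 19177855 to 40767202 counts. The study picked these clones for their knockdown, and every group, untreated cells included, carries a silencing construct. No control shRNA was part of what was analysed, so an effect of Dox itself and one of the knockdown cannot be told apart within a clone.

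Triglyceride is built on glycerol phosphate, to which the GPAT enzymes add the first fatty acid and the AGPAT enzymes the next, and the DGAT enzymes close the pathway by acylating diacylglycerol. The product is stored in lipid droplets, whose surface carries perilipins (PLIN proteins), and it is broken down again by the lipases PNPLA2 and LIPE. IRE1 is an endoplasmic reticulum sensor whose RNase splices XBP1 mRNA and cleaves other mRNAs in a process called RIDD. DGAT2 mRNA is a described RIDD substrate, and in liver XBP1 is known to support lipogenic genes, Dgat2 among them.

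RIDD substrates are commonly cut within a stem-loop whose loop holds CUGCAG, so these letters, with T for U, were looked up in the GENCODE 44 canonical transcripts of the members. The windows around the 3 matches of DGAT2 and the 3 coding matches of SLC27A1 are shown because these members were chosen for their rise after IRE1 silencing, with the motif in capitals, 5′ to 3′ on the plus strand of GRCh38.
DGAT2 match 1: actgggagtggcCTGCAGtgccatcctcat
DGAT2 match 2: ctagtcctgaaaCTGCAGgaccagtttctc
DGAT2 match 3: ggcaatgacaccCTGCAGgggaaaggactg
SLC27A1 match 1: caccgagtgcaaCTGCAGcattgccaacat
SLC27A1 match 2: atataccaggagCTGCAGaaggtgctggca
SLC27A1 match 3: cagaagacgaggCTGCAGcgagagggcttt

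DGAT2 match 1 was coding, in exon 3 of 8, and its window crossed an intron between its ends at chr11:75784742-75790212. Matches 2 and 3 lay in the 3′ untranslated part of exon 8, at chr11:75800921-75800950 and chr11:75801109-75801138. The coding matches of SLC27A1 fell in exons 7, 11 and 12 of 12, at chr19:17497425-17497454, chr19:17501338-17501367 and chr19:17504469-17504498, and a further 2 matches were in its 3′ untranslated region. These letters are common: 84.1% of 4316 transcripts of a length like that of DGAT2 held at least 1 match, and 36.5% held 3 or more. For SLC27A1, with 5 matches, 89.3% of 4469 transcripts of like length held a match and 22% held as many. GPAT3 was the member with no match, whereas 86.4% of 4488 transcripts of its length had one. Among the other members GPAT4 had 12 matches, DGAT1 6, PLIN3 5, PNPLA2 4, PLIN2 and LIPE 3 each and AGPAT2 2. Of transcripts of like length, 4.34% held as many as GPAT4, 15.3% as many as DGAT1 and 10.2% as many as PLIN3. For PNPLA2, PLIN2, AGPAT2 and LIPE the shares were 21.7%, 27.7%, 43.5% and 51.9%. Folding of the RNA was not examined, and a match is a description of letters, not of cleavage.

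Promoter sequences (RefSeq, GRCh38.p14, 250 bases before to 50 after the start) were given for 7 of the 10 members. ACGTG, the core letters bound by XBP1 and related factors, was found on either strand in PLIN2 alone and in 21.6% of all 27305 promoters. CCACG, which shares the letters CACG with the reverse complement of ACGTG, was found in 4 members (SLC27A1, AGPAT2, PLIN2 and PLIN3) and in 37.9% of promoters. The longer TGACGTGG was in no member and in 0.795% of promoters, and the endoplasmic reticulum stress element (ERSE) was in no member and in 0.0806%.

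The targeted genes were read first as a check of the labels. Levels are given as CPM, counts relative to library size, after TMM scaling of the library sizes for composition. ERN1, the gene of IRE1, was in shIRE1 clone 3 at 421, 451 and 441 CPM untreated and at 122, 125 and 128 CPM at 72 h. It began lower in shIRE1 clone 1, at 153, 150 and 154 CPM, and reached 103, 100 and 103 CPM at 72 h. XBP1 fell in shXBP1 clone 1 from 158, 170 and 173 to 33.2, 34.1 and 34.7 CPM, and in shXBP1 clone 18 from 166, 178 and 167 to 41.7, 40.1 and 31.7 CPM. Each gene also moved in the lines that target the other. Mean ERN1 went from 188 ± 4.5 to 314 ± 3.1 CPM (SD, n = 3) at 72 h in shXBP1 clone 1. In shXBP1 clone 18 it went from 414 ± 4.0 to 338 ± 30 CPM. Mean XBP1 went from 179 ± 4.3 to 138 ± 4.8 CPM in shIRE1 clone 1 and from 217 ± 25 to 121 ± 3.1 CPM in clone 3. All 9 plasma cell markers were expressed above 1 CPM in the median library, and the summed level of the 5 adipocyte markers never exceeded 0.362 CPM. No marker of B cells, hepatocytes, myeloid cells or fibroblasts passed 1 CPM in the median library. Of the 4 T cell markers, 3 did, with medians of 247 CPM for CD4, 12.5 CPM for CD3E and 2.47 CPM for CD8A, and CD3D was at 0 in 42 of 48 libraries.

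Replicate 3 of shXBP1 clone 18 at 72 h stood apart from its group. It correlated at 0.979 with its own group and at 0.996 with shXBP1 clone 1 at 72 h, while replicates 1 and 2 of its group correlated at 0.994 with each other. Its PLIN2 level was 48.4 CPM against a mean of 27.6 CPM in the other 2 replicates, and its GPAT3 level was 2.72 against 1.17 CPM. The changes of the members in shXBP1 clone 18 at 72 h are therefore given with and without it.

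At 0 h the members spanned a wide range of levels per transcript length (CPM per kb of canonical transcript, median of 12 untreated libraries). PLIN2 was highest at 26.7 and PLIN3 next at 17.9, followed by PNPLA2 at 12.5, AGPAT2 at 11.2 and GPAT4 at 10.1. DGAT2 stood at 5.25, LIPE at 3.55, DGAT1 at 2.20, SLC27A1 at 2.08 and GPAT3 at 1.10. Neighbours in this order overlapped: PNPLA2 ranged from 8.80 to 22.7 and AGPAT2 from 6.98 to 24.3, and DGAT1 from 1.58 to 2.66 and SLC27A1 from 1.44 to 2.47. The order was not the same in every clone. PLIN2 was first in shIRE1 clones 1 and 3 and in shXBP1 clone 1, whereas in shXBP1 clone 18 its mean of 12.4 ± 0.41 (SD, n = 3) stood below those of PLIN3 (19.9 ± 1.7), AGPAT2 (13.5 ± 2.1) and PNPLA2 (12.6 ± 0.45). GPAT3 was the lowest in all 4 clones, from 0.424 ± 0.067 in shXBP1 clone 18 to 1.93 ± 0.13 in shIRE1 clone 3.

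DGAT2, the enzyme that makes triglyceride from diacylglycerol at the endoplasmic reticulum and droplet, moved in opposite directions after the knockdowns. In shIRE1 clone 1 its level was 15.5, 16.8 and 14.6 CPM at 0 h, 50.8, 48.7 and 53.7 CPM at 24 h, 57.3, 58.3 and 57.1 CPM at 48 h and 53.6, 56.9 and 58.6 CPM at 72 h. Clone 3 had 10.1, 10.6 and 9.94 CPM at 0 h, 49.6, 53.8 and 54.2 CPM at 24 h, 50.6, 51.3 and 56.6 CPM at 48 h and 55.8, 53.5 and 53.7 CPM at 72 h. Every Dox-treated library of both shIRE1 clones lay above every untreated library of its clone, and the level was already near its later value at 24 h. The share of all genes without such overlap was not counted, so overlap, here and below, only describes the libraries.

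After XBP1 silencing DGAT2 was lower instead. The 0 h libraries of shXBP1 clone 1 held 19, 15.6 and 17.6 CPM, followed by 8.91, 8.92 and 8.24 CPM at 24 h, 8.21, 7.29 and 7.23 CPM at 48 h and 9.08, 6.63 and 7.16 CPM at 72 h. Clone 18 had 9.84, 9.51 and 9.15 CPM at 0 h, 6.20, 5.88 and 5.25 CPM at 24 h, 5.40, 4.94 and 5.90 CPM at 48 h and 6.12, 5.26 and 7.48 CPM at 72 h. No treated library overlapped the untreated libraries of its clone in either line.

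On the log2 scale the difference of DGAT2 from 0 h at 72 h was 1.84 ± 0.06 (SE, n = 3 per group) in shIRE1 clone 1 and 2.40 ± 0.07 in clone 3, or 3.59-fold and 5.28-fold. In shXBP1 clones 1 and 18 it was -1.21 ± 0.12 and -0.58 ± 0.13. Without the library that stood apart, the value in clone 18 was -0.73. The mean difference of the shIRE1 clones minus that of the shXBP1 clones was 2.89 at 24 h, 3.13 at 48 h and 3.02 at 72 h. This is the contrast by which DGAT2 was chosen, so these values are a description.

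SLC27A1 encodes FATP1, a membrane protein that takes up long-chain fatty acids and activates them to acyl-CoA. In shIRE1 clone 1 it was at 5.05, 5.66 and 6.60 CPM at 0 h and at 32.1, 36.3 and 37.3 CPM at 24 h, 40.4, 36.3 and 32.3 CPM at 48 h and 34.0, 28.9 and 30.2 CPM at 72 h. Clone 3 had 7.46, 7.57 and 7.24 CPM at 0 h and 33.9, 39.8 and 36.9 CPM at 24 h, 50.9, 49.5 and 51.9 CPM at 48 h and 44.6, 46.4 and 35.5 CPM at 72 h. Treated and untreated libraries did not overlap in either shIRE1 clone.

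In the shXBP1 clones SLC27A1 overlapped its untreated level at every time. Its range in shXBP1 clone 1 was from 5.44 to 8.37 CPM at 0 h and from 5.62 to 7.61 CPM at 72 h, and in shXBP1 clone 18 from 7.36 to 8.67 CPM and from 6.40 to 8.09 CPM. At 24 h it reached from 5.65 to 8.76 CPM in clone 1 and from 6.33 to 9.66 CPM in clone 18, past both ends of the untreated range in the latter. The shXBP1 lines thus separated the pair of chosen genes: DGAT2 lay below its untreated level at every time and SLC27A1 overlapped it.

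The log2 difference of SLC27A1 from 0 h at 72 h was 2.42 ± 0.11 (SE, n = 3 per group) in shIRE1 clone 1 and 2.50 ± 0.11 in clone 3, or 5.34-fold and 5.65-fold, against 0.03 ± 0.20 and -0.16 ± 0.17 in shXBP1 clones 1 and 18, the latter being -0.097 without the library that stood apart. A fit with a correction for GC content, described with the spread of the members, gave 0.38, 0.49 and 0.44 at 24, 48 and 72 h in shXBP1 clone 1 and 0.033 at 72 h in clone 18. The shIRE1 minus shXBP1 difference was 2.34, 2.68 and 2.52 at 24, 48 and 72 h. These values chose the gene and carry no test.

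**Figure D1:**
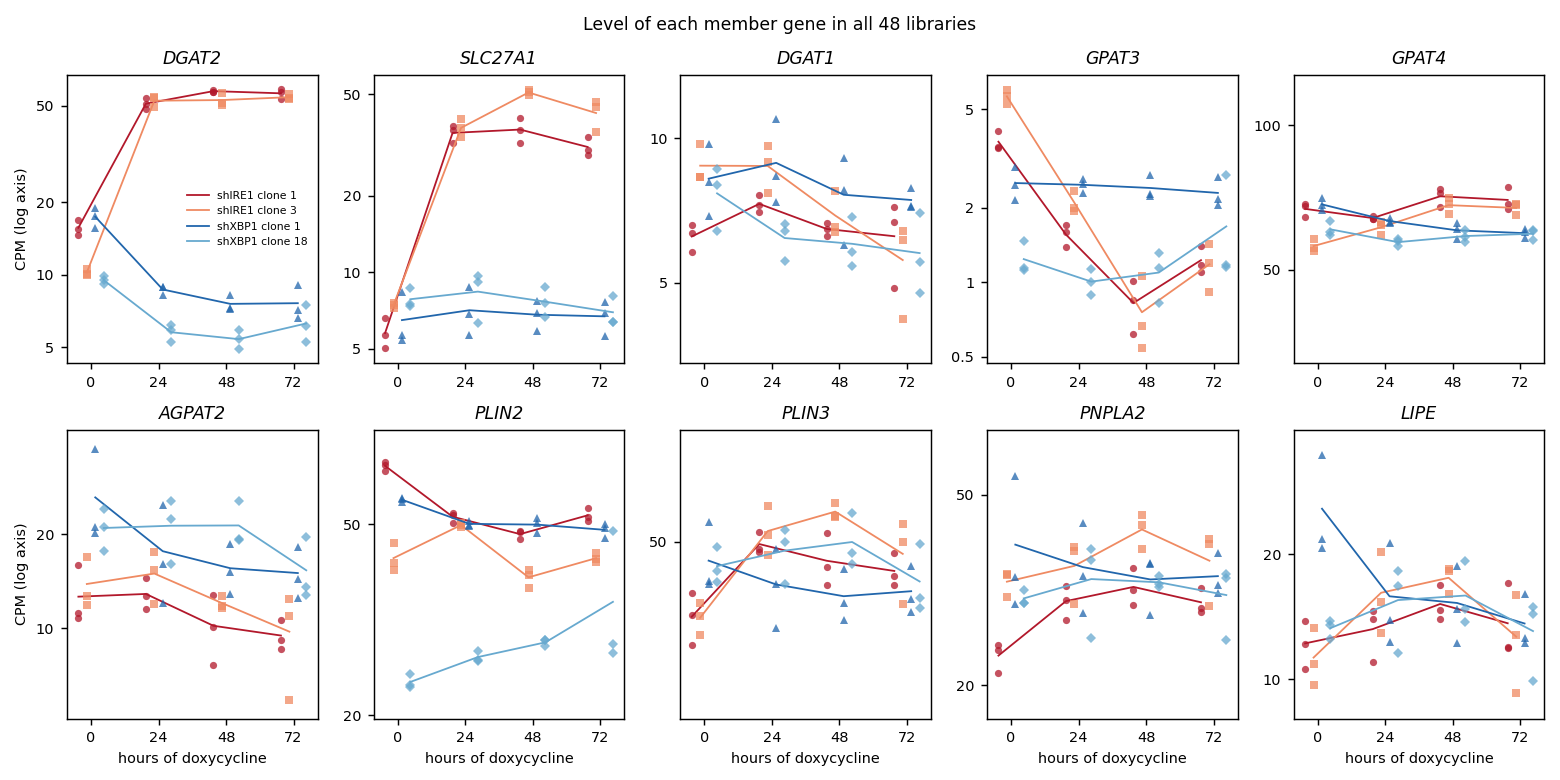
Level of each of the 10 member genes (CPM after TMM scaling, log axis) against hours of doxycycline, with 1 point per library, set aside a little by clone, and a line through the mean of the 3 replicates of each clone and time. DGAT2 and SLC27A1 stand above their 0 h points in both shIRE1 clones at every treated time, DGAT2 stands below them in both shXBP1 clones, and GPAT3 stands below them in both shIRE1 clones.

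The response of DGAT2 differed between clones of the same shRNA, a comparison that its selection did not use. Between the shIRE1 clones, the change at 72 h was larger in clone 3 by 0.56 ± 0.13 on the log2 scale (edgeR quasi-likelihood test over all 48 libraries, adjusted p = 0.00064). Untreated DGAT2 was lower in clone 3 than in clone 1, at 10.2 ± 0.35 against 15.6 ± 1.1 CPM (SD, n = 3; log2 difference -0.62 ± 0.09, edgeR adjusted p = 1.2e-06), and the levels reached at 72 h were 54.3 ± 1.3 and 56.4 ± 2.6 CPM. The clones thus started apart and ended close together.

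Between the shXBP1 clones the change of DGAT2 at 72 h was less negative in clone 18 by 0.61 ± 0.14 (edgeR adjusted p = 0.0012), or by 0.49 without the library that stood apart (adjusted p = 0.01). Here too the untreated levels differed, at 9.50 ± 0.35 CPM in clone 18 and 17.4 ± 1.7 CPM in clone 1 (log2 difference -0.87 ± 0.10, edgeR adjusted p = 5.8e-10). For SLC27A1 the clone differences in the change at 72 h were 0.08 ± 0.22 and -0.21 ± 0.23 and did not pass the test (edgeR adjusted p = 0.82 and 0.56). Between the shXBP1 clones it was -0.11 without the library that stood apart, and with the GC correction it was -0.41 ± 0.11 and was called (adjusted p = 0.0024).

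DGAT1, the other diacylglycerol acyltransferase, did not share the rise of DGAT2. In shIRE1 clone 1 it was at 5.78, 6.33 and 6.60 CPM at 0 h and 7.19, 6.68 and 4.86 CPM at 72 h, and the groups overlapped. Levels in shIRE1 clone 3 were 8.28, 8.28 and 9.72 CPM at 0 h and 6.39, 6.12 and 4.20 CPM at 72 h, so that every 72 h library lay below. The changes in clone 3 were -0.36 ± 0.15 at 48 h and -0.66 ± 0.15 at 72 h on the log2 scale (edgeR adjusted p = 0.045 and 0.0016). The difference between the clones at 72 h passed the test (-0.65 ± 0.23, edgeR adjusted p = 0.034). The call at 48 h was lost without 0 h or 48 h replicate 2 or 3 (-0.29 to -0.41), and that of the clone difference without any of 6 libraries, namely 0 h or 72 h replicate 1 or 2 of clone 1 and 0 h or 72 h replicate 3 of clone 3 (-0.48 to -0.66).

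In the shXBP1 clones DGAT1 did not pass the test at any time without a GC correction, with changes from -0.17 ± 0.18 to -0.39 ± 0.16 at 72 h. In clone 18 at 72 h it was called lower only when the library that stood apart was left out (-0.56, edgeR adjusted p = 0.037). The GC correction moved DGAT1 in other clones. With it DGAT1 was called higher in shXBP1 clone 1, by 0.36, 0.31 and 0.25 at 24, 48 and 72 h (edgeR adjusted p = 0.002, 0.0086 and 0.025), and lower in shIRE1 clone 3 at each time (-0.34, -0.77 and -0.86, adjusted p from 3.2e-07 to 0.0036). Per transcript length, DGAT2 exceeded DGAT1 in every group. The ratio of DGAT2 to DGAT1 went from 3.82 ± 0.39 (SD, n = 3) at 0 h to 14.2 ± 3.7 at 72 h in shIRE1 clone 1 and from 1.78 ± 0.21 to 15.3 ± 3.5 in clone 3. In shXBP1 clones 1 and 18 it went from 3.26 ± 0.54 to 1.55 ± 0.18 and from 1.91 ± 0.30 to 1.66 ± 0.03. These ratios contain DGAT2 and therefore describe the same choice.

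GPAT3, an endoplasmic reticulum enzyme of the first acylation step, fell after IRE1 silencing. In shIRE1 clone 1 it was at 3.52, 4.08 and 3.5 CPM at 0 h, 1.70, 1.39 and 1.59 CPM at 24 h, 0.617, 0.852 and 1.01 CPM at 48 h and 1.11, 1.41 and 1.18 CPM at 72 h. Clone 3 had 6.01, 5.24 and 5.67 CPM at 0 h, 2.34, 1.94 and 2 CPM at 24 h, 0.542, 0.667 and 1.06 CPM at 48 h and 1.20, 0.918 and 1.44 CPM at 72 h. All treated libraries lay below all untreated ones in both clones, with the lowest levels at 48 h.

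The changes of GPAT3 were -1.25 ± 0.15, -2.18 ± 0.17 and -1.59 ± 0.16 at 24, 48 and 72 h in shIRE1 clone 1 (edgeR adjusted p = 6.2e-07, 1.5e-09 and 6.8e-08). In clone 3 they were -1.44 ± 0.17, -2.88 ± 0.20 and -2.27 ± 0.19 (edgeR adjusted p = 6.1e-06, 6.2e-09 and 5.3e-08), the last being 4.82-fold lower. GPAT3 was the least abundant member, and the lowest library held 15 counts of it, so that counting error is large at 48 h. In the shXBP1 clones it was not called at any time, with changes of -0.15 ± 0.15 in clone 1 and 0.47 ± 0.32 in clone 18 at 72 h, or -0.09 in clone 18 without the library that stood apart.

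GPAT4, the more abundant enzyme of the same step, moved little but with little spread. It was called higher in shIRE1 clone 3 at 48 and 72 h, by 0.27 ± 0.05 and 0.25 ± 0.05 (edgeR adjusted p = 0.00035 and 0.00076), from 55.4, 57.9 and 54.8 CPM at 0 h to 68.6, 65.1 and 68.1 CPM at 72 h. It was called lower in shXBP1 clone 1 at the same times, with changes of -0.20 ± 0.05 and -0.22 ± 0.05 (edgeR adjusted p = 0.011 and 0.0058), from 70.4, 68.1 and 66.7 CPM to 58.2, 59.9 and 60.7 CPM. These groups did not overlap. The 48 h call in shXBP1 clone 1 was lost without 48 h replicate 3 (-0.17). In shIRE1 clone 3 GPAT4 was called at 24 h only without 24 h replicate 1 (0.15, edgeR adjusted p = 0.034). Neither in shIRE1 clone 1 nor in shXBP1 clone 18 was GPAT4 called at any time, and its change in clone 18 at 72 h was -0.025, or -0.0046 without the library that stood apart. In shXBP1 clone 1 at 24 h it was called only with the GC correction (-0.15, edgeR adjusted p = 0.0039).

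AGPAT2, which adds the next fatty acid to make phosphatidate, was among the most variable members between replicates. In shIRE1 clone 1 it was at 10.8, 11.2 and 15.9 CPM at 0 h and at 10.7, 8.61 and 9.17 CPM at 72 h, a change of -0.42 ± 0.17 (edgeR adjusted p = 0.035). The shXBP1 clone 1 libraries held 37.5, 21.0 and 20.1 CPM at 0 h and 18.2, 14.3 and 12.5 CPM at 72 h, a change of -0.82 ± 0.29 (edgeR adjusted p = 0.044). No other change of AGPAT2 from 0 h was called without the GC correction, and in clone 18 at 72 h it was -0.44, or -0.32 without the library that stood apart. With the correction AGPAT2 was called lower in both shIRE1 clones at each time, with -0.25, -0.63 and -0.63 in clone 1 and -0.31, -0.77 and -0.80 in clone 3, every one passing the test (edgeR adjusted p between 1.1e-07 and 0.017), while the change in shXBP1 clone 1 at 72 h was -0.19 in place of -0.82 (adjusted p = 0.044). Replicate 1 of shXBP1 clone 1 at 0 h was far above its replicates, as it also was for LIPE and PNPLA2, and it had the highest GC slope of the 48 libraries (0.201, a measure of base composition described with the spread of the members). Both calls of AGPAT2 rested on single libraries. The call in shIRE1 clone 1 was lost without 0 h replicate 3 (-0.22) or 72 h replicate 2 or 3 (-0.35 and -0.39), and that in shXBP1 clone 1 without 0 h replicate 1 (-0.47) or any 72 h replicate (-0.98, -0.78 and -0.70).

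PLIN2, the perilipin that coats droplets in most cell types, was lower after Dox in shIRE1 clone 1 and in shXBP1 clone 1. In shIRE1 clone 1 it was at 67.6, 66.6 and 64.5 CPM at 0 h and 50.9, 54.0 and 51.8 CPM at 72 h, and its changes of -0.36, -0.47 and -0.34 at 24, 48 and 72 h were all called (each ± 0.04, edgeR adjusted p from 2.6e-08 to 1.9e-06). The shXBP1 clone 1 libraries held 56.9, 56.4 and 55.6 CPM at 0 h and 46.9, 50.1 and 49.3 CPM at 72 h, with changes of -0.19, -0.19 and -0.23 (each ± 0.05, edgeR adjusted p = 0.017, 0.016 and 0.0055). Treated and untreated libraries did not overlap in these clones. In shXBP1 clone 1 the call was lost at 24 h without replicate 1 of 0 or of 24 h (-0.17 and -0.16) and at 48 h without replicate 2 or 3 of 48 h (-0.19 and -0.17).

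PLIN2 in shIRE1 clone 3 was higher at 24 h (0.22 ± 0.06, edgeR adjusted p = 0.0062), lower at 48 h (-0.14 ± 0.06, adjusted p = 0.049) and not called at 72 h (-0.01 ± 0.06). The call at 24 h was lost without 0 h replicate 3 (0.17), and that at 48 h without any of 5 libraries (0 h replicates 1 and 2 and each 48 h replicate, -0.10 to -0.17) and with the GC correction (-0.089). In shXBP1 clone 18, where PLIN2 began at 24.4, 23.0 and 23.1 CPM, the 72 h libraries held 28.1, 27.0 and 48.4 CPM, and every treated library lay above the untreated ones. The change at 72 h was 0.57 ± 0.17 with all libraries and 0.24 without the library that stood apart (edgeR adjusted p = 0.0498 and 0.047). The call with all libraries was also lost without any of the 3 untreated replicates (0.56 to 0.60). At 48 h the change of 0.28 was called only without that library (edgeR adjusted p = 0.40 with it and 0.0086 without it). PLIN2 was thus lower in shXBP1 clone 1 and higher in shXBP1 clone 18 at 72 h: the clone difference was 0.77 ± 0.14 in shXBP1 (edgeR adjusted p = 9.9e-05), or 0.47 without that library (adjusted p = 1.6e-06). In shIRE1 it was 0.34 ± 0.14 and did not pass the test (edgeR adjusted p = 0.066). The shIRE1 difference was called at 0.35 without that library (adjusted p = 2.8e-05), at 0.37 with the GC correction (adjusted p = 0.023) and at 0.40 without 0 h replicate 1 of shIRE1 clone 3 (adjusted p = 0.04).

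PLIN3, a perilipin that moves from cytosol to newly formed droplets, rose in both shIRE1 clones. It was at 30.4, 35.1 and 39.1 CPM at 0 h and 47.4, 42.4 and 40.6 CPM at 72 h in clone 1, and at 35.0, 31.9 and 37.2 CPM and 49.9, 54.5 and 37.0 CPM in clone 3. Treated and untreated libraries overlapped in a single case, clone 3 at 72 h. The changes at 24, 48 and 72 h were 0.50 ± 0.09, 0.39 ± 0.09 and 0.31 ± 0.10 in clone 1 (edgeR adjusted p = 0.00015, 0.0014 and 0.0081) and 0.59 ± 0.12, 0.72 ± 0.12 and 0.43 ± 0.12 in clone 3 (adjusted p = 0.0011, 0.00011 and 0.007). The call in clone 1 at 72 h was lost without replicate 1 of 0 h or of 72 h (0.22 and 0.24). In the shXBP1 clones none of the changes of PLIN3 passed the test, and they ranged from -0.26 ± 0.16 to 0.17 ± 0.13. The change in clone 18 at 72 h was -0.098, or -0.012 without the library that stood apart. With the GC correction the changes were 0.40, 0.26 and 0.22 in shIRE1 clone 1 and 0.42, 0.55 and 0.35 in clone 3, all of them called (edgeR adjusted p from 1.1e-06 to 0.0025).

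PNPLA2, the lipase that starts triglyceride breakdown, was called higher in shIRE1 clone 1 at each time, by 0.37 ± 0.08, 0.48 ± 0.08 and 0.36 ± 0.08 (edgeR adjusted p = 0.00064, 4.4e-05 and 0.0008), from 21.3, 23.7 and 24.3 CPM at 0 h to 32, 28.5 and 29.0 CPM at 72 h. Among the times of shIRE1 clone 3 it was called only at 48 h (0.35 ± 0.13, edgeR adjusted p = 0.024), a call lost without 0 h replicate 1 or 2 or 48 h replicate 1 or 3 (0.29 to 0.36). At 72 h it was called in that clone only without 72 h replicate 3 (0.27, adjusted p = 0.038). The shXBP1 clones gave no call of PNPLA2 without a GC correction, and in clone 18 at 72 h its change was 0.031, or -0.037 without the library that stood apart.

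With the GC correction the calls of PNPLA2 were different. The changes in shIRE1 clone 1 were 0.12, 0.17 and 0.17 and stayed called (edgeR adjusted p = 0.036, 0.0034 and 0.0063). The change in shIRE1 clone 3 was -0.28 at 24 h, where it was called lower (adjusted p = 0.0025), and -0.16 at 48 h, where it was not (adjusted p = 0.055). In shXBP1 clone 1 PNPLA2 was called higher at each time, by 0.21, 0.31 and 0.31 (edgeR adjusted p = 0.002, 9.8e-05 and 7.7e-05).

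LIPE, hormone-sensitive lipase, which acts mainly on diacylglycerol, was called lower in shXBP1 clone 1, with changes of -0.72 ± 0.24, -0.76 ± 0.25 and -0.94 ± 0.25 (edgeR adjusted p = 0.047, 0.033 and 0.013). Its untreated libraries there held 34.6, 21.8 and 20.7 CPM and the 72 h libraries 16.1, 12.5 and 12.2 CPM. Without 0 h replicate 1 the changes were -0.43, -0.49 and -0.66 and none was called, and the calls were also lost without 0 h replicate 2 or 24 h replicate 1 or 3 (at 24 h, -0.83, -0.55 and -0.63) and without replicate 2 or 3 of 48 h (-0.63 and -0.75) or of 72 h (-0.87 and -0.86). LIPE in shIRE1 clone 3 was called higher at 24 and 48 h (0.52 ± 0.19 and 0.62 ± 0.19, edgeR adjusted p = 0.036 and 0.0098) and not at 72 h (0.16 ± 0.19). The 24 h call was lost without 0 h replicate 1 or 2 or 24 h replicate 2 or 3 (0.31 to 0.55), and the 48 h call without 0 h replicate 1 (0.50). It was not called in shIRE1 clone 1 or shXBP1 clone 18, where the change at 72 h was -0.013, or -0.087 without the library that stood apart. With the GC correction LIPE was called in shIRE1 clone 3 at 48 h but not at 24 h (0.32 and 0.26, edgeR adjusted p = 0.029 and 0.097), and in shXBP1 clone 1 its changes were -0.53, -0.43 and -0.63, all called (adjusted p from 8.6e-05 to 0.0025).

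**Figure D2:**
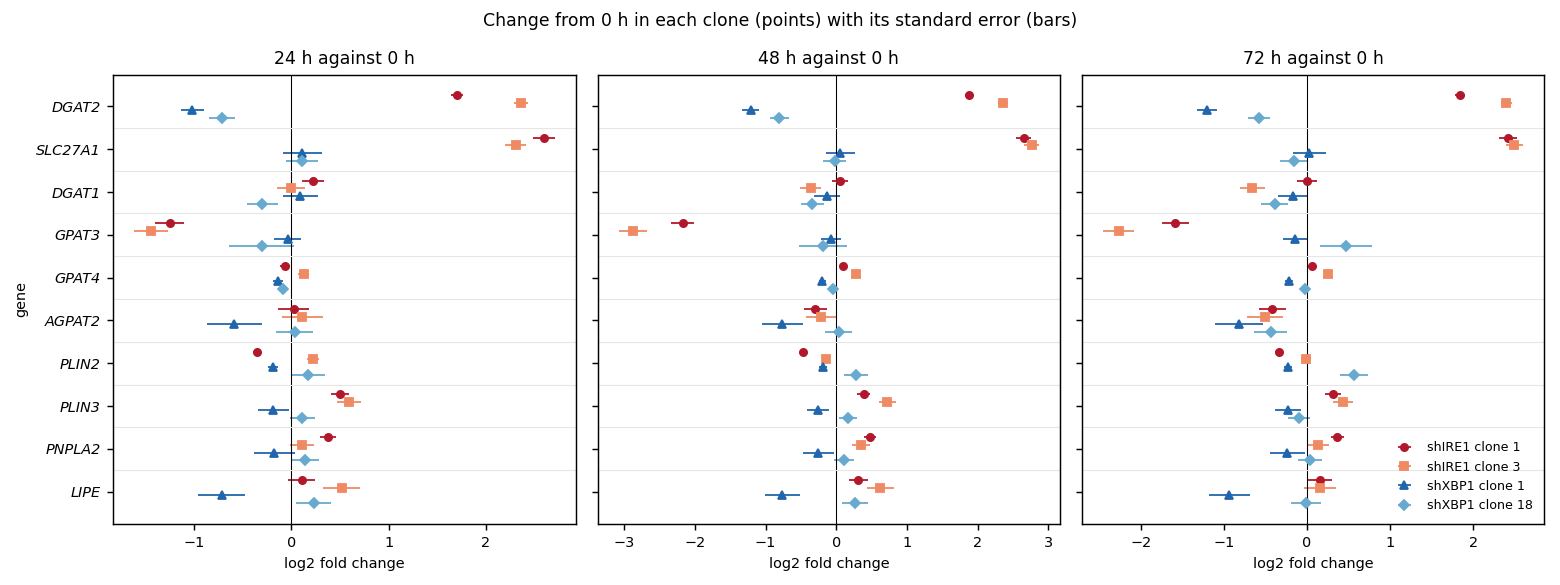
Log2 fold change of each member against 0 h of its own clone at 24, 48 and 72 h, with bars for the standard error of the fit (3 replicates per group). DGAT2 and SLC27A1 lie furthest to the right and GPAT3 furthest to the left in both shIRE1 clones, while the other 7 members lie within 1 log2 unit of 0.

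The spread of 6 members between replicates went with base composition. For each library a GC slope was taken, the change of a gene's deviation from its group mean per 10 percentage points of transcript GC, and it ran from -0.177 to 0.201 log2 units over the 48 libraries. Across these libraries the deviations of SLC27A1, AGPAT2, PLIN3, PNPLA2 and LIPE correlated with the slope at r = 0.91 to 0.93, and that of DGAT1 at 0.80. These 6 have transcripts of 58.0% to 66.0% GC. The remaining 4 members did not follow it, with r = 0.29 for DGAT2, -0.27 for GPAT3, -0.07 for PLIN2 and -0.03 for GPAT4. The libraries share their composition over all genes, so the correlations are descriptions.

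**Figure D3:**
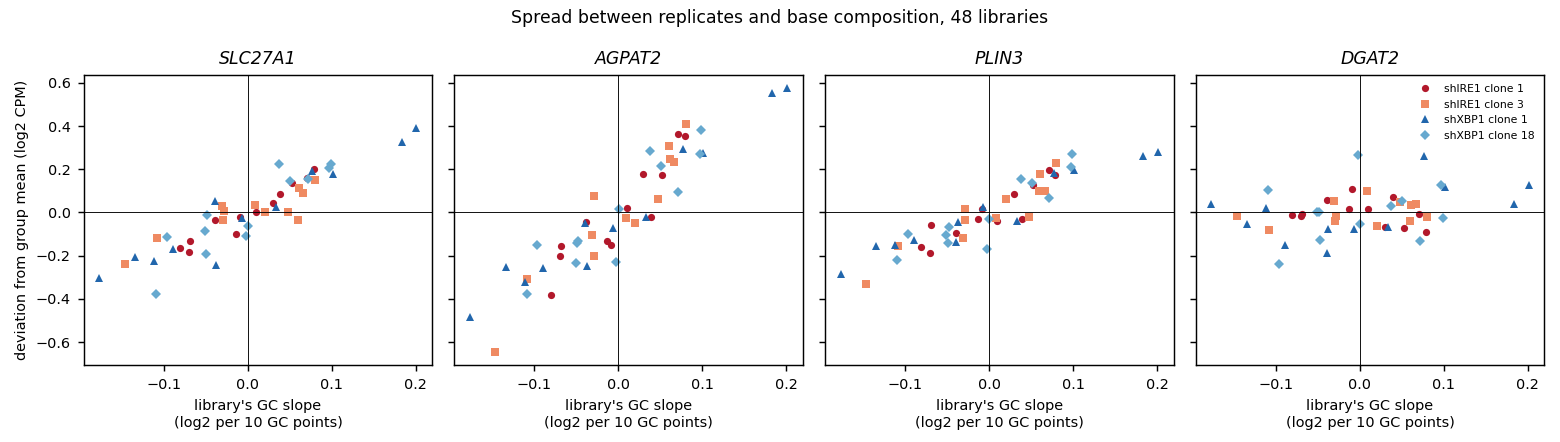
Deviation of SLC27A1, AGPAT2, PLIN3 and DGAT2 from their group mean (log2 CPM) against the GC slope of the library (log2 units per 10 percentage points of GC), 1 point for each of the 48 libraries. The first 3 genes rise along the axis with r of 0.91 to 0.93, and DGAT2 shows r of 0.29.

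The changes from 0 h also followed GC content. For these a second slope was taken, that of each gene's change in group mean log2 CPM per 10 percentage points of GC. At 24, 48 and 72 h it was 0.117, 0.141 and 0.104 in shIRE1 clone 1 and 0.219, 0.251 and 0.142 in clone 3. In shXBP1 clone 1 it was -0.115, -0.224 and -0.191 and in clone 18 -0.0170, -0.0232 and -0.0975. A fit that removes a smooth trend on GC content from each library was therefore added after seeing the data, which also removes any true difference that follows GC content. What either slope arises from was not tested.

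The direct comparison of responses, the mean change of the shIRE1 clones minus that of the shXBP1 clones, called 4 of the 8 tested members at 24 h, 6 at 48 h and 5 at 72 h by edgeR, where 38.7%, 56.9% and 55.3% of 18445 genes were called. The share of members was therefore near that of all genes. The error of this test comes from replicate cultures within clones, so its p-values do not measure the spread between clones of one shRNA. GPAT3 had the largest difference among them, -1.18 ± 0.22, -2.40 ± 0.23 and -2.09 ± 0.22 (edgeR adjusted p = 2.8e-05, 1.7e-11 and 1.5e-10), and -1.09, -2.29 and -2.01 with the GC correction. At 72 h it was -1.82 without the library that stood apart.

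PLIN3 was higher after IRE1 silencing relative to XBP1 silencing by 0.58 ± 0.14, 0.60 ± 0.14 and 0.54 ± 0.14 (edgeR adjusted p = 0.0011, 0.00045 and 0.0015), and by 0.40, 0.35 and 0.34 with the GC correction. GPAT4 was higher by 0.14 ± 0.05, 0.30 ± 0.05 and 0.28 ± 0.05 (edgeR adjusted p = 0.016, 5.4e-07 and 2.1e-06), and by 0.11, 0.26 and 0.25 with the correction. PLIN2 differed by -0.35 ± 0.10 at 48 and at 72 h (edgeR adjusted p = 0.0028 and 0.0033), with corrected values of -0.27 and -0.28, and it differed at 72 h by -0.19 without the library that stood apart (adjusted p = 0.0005). These 4 members stayed called at these times under the correction. Behind the PLIN2 value at 72 h the clones differed. Fold changes from 0 h were 0.79 and 0.99 in shIRE1 clones 1 and 3. They were 0.85 and 1.48 in shXBP1 clones 1 and 18 with all libraries. The call of GPAT4 at 24 h was lost without any of 4 libraries (0.11 to 0.12), namely 0 h replicate 3 of shIRE1 clone 1, 24 h replicate 3 of shIRE1 clone 3, and replicate 1 of 0 and of 24 h of shXBP1 clone 1.

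The lipases and the acyltransferases of high GC content depended on the correction. LIPE was higher by 0.55 ± 0.22, 0.72 ± 0.22 and 0.63 ± 0.22 (edgeR adjusted p = 0.041, 0.0051 and 0.014), but by 0.26, 0.31 and 0.29 with the GC correction (adjusted p = 0.096, 0.032 and 0.0504). Without replicate 1 of shXBP1 clone 1 at 0 h LIPE was called at neither 24 nor 72 h (0.40 and 0.49), and the 24 h call was lost without any of 15 libraries in all (0.40 to 0.56). PNPLA2 was called higher at 48 h (0.48 ± 0.17, edgeR adjusted p = 0.012) without the correction and lower with it (-0.18, adjusted p = 0.025). Without that same replicate the difference was 0.32 and not called (adjusted p = 0.062). DGAT1 and AGPAT2 were not called without the correction at any time, at 0.07 ± 0.16 and 0.10 ± 0.25 at 48 h, and both were called lower with it (-0.46 and -0.63, edgeR adjusted p = 0.00022 and 9.2e-07). The directions of PNPLA2, DGAT1 and AGPAT2 thus changed with the correction. For the chosen genes the corrected differences at 24, 48 and 72 h were 2.78, 2.97 and 2.89 for DGAT2 and 1.96, 2.16 and 2.09 for SLC27A1.

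**Figure D4:**
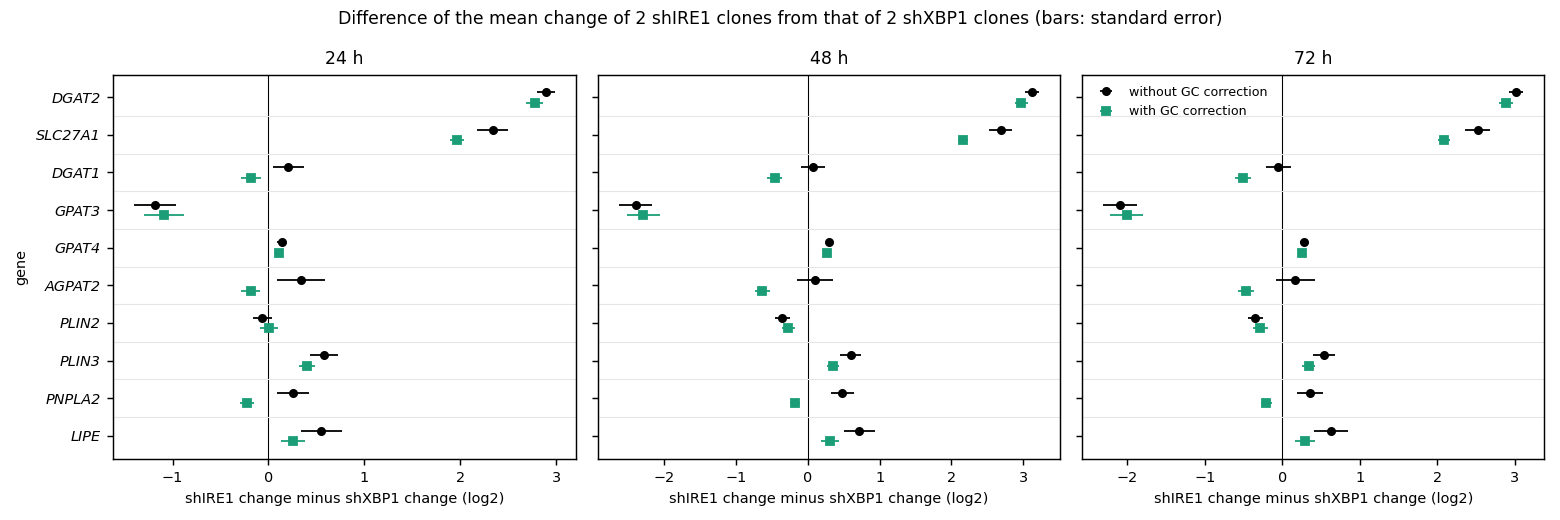
Mean log2 change of the 2 shIRE1 clones minus that of the 2 shXBP1 clones at 24, 48 and 72 h for each member, without and with the GC correction, with bars for the standard error. DGAT2, SLC27A1, GPAT3, PLIN3 and GPAT4 keep their side of 0 in both fits, while PNPLA2 changes side at each time and AGPAT2 and DGAT1 lie below 0 at 48 h only with the correction.

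Counted over the 8 tested members, the changes from 0 h in shIRE1 clone 1 were called for 4, 4 and 5 at 24, 48 and 72 h, where edgeR called 61.4%, 65.4% and 63.6% of all genes tested. In shIRE1 clone 3 they were called for 4, 7 and 4, against 46.2%, 63.2% and 60.2% of genes. In shXBP1 clone 1 they were called for 2, 3 and 4, against 26.7%, 32% and 33.6%, and all were lower, as were 12.8%, 15.5% and 16.8% of genes. With the GC correction 5, 5 and 6 were called there, 2 of them higher at each time (DGAT1 and PNPLA2). In shXBP1 clone 18 the changes were called for 0, 0 and 1, against 1.59%, 5.78% and 9.96%, and for 2 at 72 h without the library that stood apart. The shares of all genes are those without the correction and with all libraries. Under other settings they were not counted, so those counts of members have no such share beside them. GPAT3 and PLIN3 were the members called the same way at every time in both shIRE1 clones. At 72 h the median log2 change of the 8 was 0.03 and 0.06 in shIRE1 clones 1 and 3 and -0.23 and -0.02 in shXBP1 clones 1 and 18, and that of all genes was 0.02, 0.02, -0.01 and -0.01.

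Between 24 and 72 h none of the 8 was called in shIRE1 clone 1, shXBP1 clone 1 or shXBP1 clone 18, where 29.1%, 0.205% and 0.125% of all genes were called. In shIRE1 clone 3, with 33.5% of genes called and 17.1% lower, 4 of the 8 fell: DGAT1 (-0.66 ± 0.15), GPAT3 (-0.83 ± 0.20), AGPAT2 (-0.62 ± 0.21) and PLIN2 (-0.23 ± 0.06). Their edgeR adjusted p-values were 0.0032, 0.0055, 0.036 and 0.0058 in that order, and the call of AGPAT2 was lost without 24 h replicate 2 or 3 or 72 h replicate 3 (-0.36 to -0.60). DGAT2 and SLC27A1 differed between 24 and 72 h by 0.04 and 0.19 in that clone.

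The clones of each shRNA already differed before Dox. Of all 10 members, 6 differed between shIRE1 clones 3 and 1 at 0 h (40.6% of all genes did) and 5 between shXBP1 clones 18 and 1 (51.3% of genes). The largest of these was PLIN2, lower in shXBP1 clone 18 (log2 difference -1.26 ± 0.10, edgeR adjusted p = 4.7e-13) and in shIRE1 clone 3 (-0.64 ± 0.10, adjusted p = 1.6e-06). GPAT3 was higher in shIRE1 clone 3 (0.61 ± 0.19, edgeR adjusted p = 0.0076), and shXBP1 clone 18 had less of it than clone 1 (-1.003 ± 0.23, adjusted p = 0.00039). ERN1 itself differed at 0 h by 1.52 ± 0.05 between the shIRE1 clones and by 1.14 ± 0.05 between the shXBP1 clones (edgeR adjusted p = 5.1e-26 and 1.2e-21).

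The change at 72 h differed between the shIRE1 clones for 3 of the 10 members (27.5% of genes), namely DGAT2, DGAT1 and GPAT4, the last by 0.20 ± 0.06 (edgeR adjusted p = 0.016). It differed between the shXBP1 clones for 3 (24.6% of genes), namely DGAT2, PLIN2 and LIPE, the last by 0.90 ± 0.31 (edgeR adjusted p = 0.029) and by 0.86 without the library that stood apart, when it was no longer called (adjusted p = 0.065). The call of LIPE was also lost without replicate 1 of shXBP1 clone 1 at 0 h (0.65), 72 h replicate 2 or 3 of that clone, or 0 h replicate 2 or 72 h replicate 1 of clone 18 (0.82 to 0.88). GPAT4 differed between the shXBP1 clones by 0.17 ± 0.06 and was called only without the library that stood apart (0.22, edgeR adjusted p = 0.014) or with the GC correction. The correction added PLIN2 (0.37) and PNPLA2 (-0.25) between the shIRE1 clones, and DGAT1 (-0.44), SLC27A1 (-0.41) and GPAT4 (0.23) between the shXBP1 clones, to those called.

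The wider pathway was read from a list of 80 further genes in 8 roles, chosen from knowledge of the pathway. At 72 h, 39 of 52 tested genes were called in shIRE1 clone 1 (22 higher, 17 lower) and 40 of 52 in clone 3 (18 higher, 22 lower), beside 63.6% (32.5% higher, 31.1% lower) and 60.2% (29.7% higher, 30.5% lower) of all genes. In shXBP1 clones 1 and 18, 18 of 50 and 5 of 51 were called, beside 33.6% and 9.96%, and the 5 became 6 without the library that stood apart. By role, 7 acylation and phosphatidate enzymes were called higher and 3 lower of 11 tested in each shIRE1 clone. Of 11 uptake and activation genes, 2 and 3 were higher in clones 1 and 3 and 5 were lower in each. The 13 droplet genes gave 4 higher and 4 lower in clone 1 and 4 higher and 7 lower in clone 3. Of 5 lipolysis genes, 3 were higher and 1 lower in clone 1, and 0 were higher and 2 lower in clone 3. The 4 glycerol phosphate genes gave 1 higher and 2 lower in each clone, the 2 sterol ester genes 1 in each direction, and the 6 nuclear receptors and lipogenic factors 4 higher and 1 lower in clone 1 and 2 in each direction in clone 3. No gene of lipoprotein loading was tested.

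Among the 49 genes of this list tested in all 4 clones, the largest change was that of PLIN4, a perilipin of nascent droplets, which rose by 2.67 ± 0.14 in shIRE1 clone 1 and 3.17 ± 0.13 in clone 3 (edgeR adjusted p = 3.5e-12 and 3.2e-11). Its mean level went from 2.15 ± 0.43 to 13.8 ± 0.59 CPM (SD, n = 3) in clone 1 and from 2.43 ± 0.50 to 22.0 ± 2.5 CPM in clone 3, and in neither shXBP1 clone was it called, with levels of 1.14 to 2.41 CPM. The glycerol phosphate genes moved apart. In clone 1 GPD1L and the mitochondrial GPD2 fell, with changes of -1.60 ± 0.06 and -1.14 ± 0.08. Their changes in clone 3 were -1.36 ± 0.06 and -1.05 ± 0.11. The largest edgeR adjusted p among these values was 1.4e-06. Cytosolic GPD1 had mean levels of 0.296 ± 0.20 CPM (SD, n = 3) untreated and 0.929 ± 0.33 CPM at 72 h in clone 1. The clone 3 means were 0.268 ± 0.17 and 0.590 ± 0.15 CPM. These untreated levels lay near the filter on low counts. The GPD1 changes of 1.61 ± 0.38 and 1.14 ± 0.45 are therefore a description, without a test. The phosphatidate phosphatase gene PLPP3 rose by 1.45 ± 0.13 and 1.44 ± 0.16, and AGPAT4 by 1.05 ± 0.13 and 1.31 ± 0.14 (edgeR adjusted p from 1.5e-08 to 1.7e-06). These 6 genes were the ones among the 49 called the same way with at least a 2-fold change in both shIRE1 clones. For GPD1, meeting this condition rests on the low untreated levels given above. The share of all genes meeting this condition is not given, so the count only describes the list. At 72 h with all libraries, AGPAT4 was also called higher in shXBP1 clone 1 (0.58 ± 0.18, edgeR adjusted p = 0.03). GPD2 was called higher in shXBP1 clone 18 (0.61 ± 0.12, edgeR adjusted p = 0.0082). PLPP3 changed by 0.38 ± 0.23 and 1.23 ± 0.53 in shXBP1 clones 1 and 18 and was called in neither. GPD1L was called in neither shXBP1 clone. Mean GPD1 levels in the shXBP1 clones at 0 and 72 h lay from 0.150 to 0.415 CPM. Leaving out 0 h replicate 1 or 3 or 72 h replicate 1 or 2 of shIRE1 clone 3 gave GPD1 changes there of 0.69 to 1.34.

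A further 3 genes met the same condition but were too low to be tested in at least 1 shXBP1 clone, and they are named after their values were seen. In shIRE1 clone 1 all 3 passed the filter on low counts through the treated libraries, as MOGAT2 did in clone 3. Untreated libraries of shIRE1 clone 3 held 19 to 28 counts of PLIN5 and 14 to 26 of SOAT2. The values of these genes are therefore given as a description, without a test. PLIN5, a perilipin of oxidative tissues, went from 0.188 ± 0.12 to 3.05 ± 0.17 CPM (SD, n = 3) in shIRE1 clone 1 and from 0.898 ± 0.14 to 5.10 ± 0.89 CPM in clone 3. SOAT2, which esterifies cholesterol, went from 0.232 ± 0.037 to 3.21 ± 0.39 CPM and from 0.789 ± 0.21 to 5.65 ± 0.26 CPM. MOGAT2, which makes diacylglycerol from monoacylglycerol, held 0 to 1 counts per untreated shIRE1 library and 7 to 17 at 72 h. In the shXBP1 clones the mean levels of these 3 genes at 0 and 72 h lay from 0.0112 to 0.273 CPM.

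In the shXBP1 clones 2 genes of the wider list were called the same way in both at 72 h, each a droplet gene and each lower. The share of all genes called alike in both was not counted, so this count too only describes the list. FITM2, which partitions triglyceride into droplets, changed by -0.49 ± 0.08 in clone 1 and -0.55 ± 0.10 in clone 18 (edgeR adjusted p = 0.00059 and 0.006). AUP1, a droplet and endoplasmic reticulum protein, changed by -0.47 ± 0.08 and -0.30 ± 0.07 (edgeR adjusted p = 0.001 and 0.019). In clone 18 without the library that stood apart the changes were -0.45 and -0.27, and both stayed called (adjusted p = 0.0084 and 0.033). The call of AUP1 in clone 18 was lost without 0 h replicate 1 or 3 (both -0.27), and its change there was -0.17 with the GC correction (adjusted p = 0.0094). Both were also lower in the shIRE1 clones, with changes of -0.35 ± 0.09 and -0.70 ± 0.08 for FITM2 and of -0.56 ± 0.05 and -0.39 ± 0.06 for AUP1 (edgeR adjusted p from 4.9e-09 to 0.0026).

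**Figure D5:**
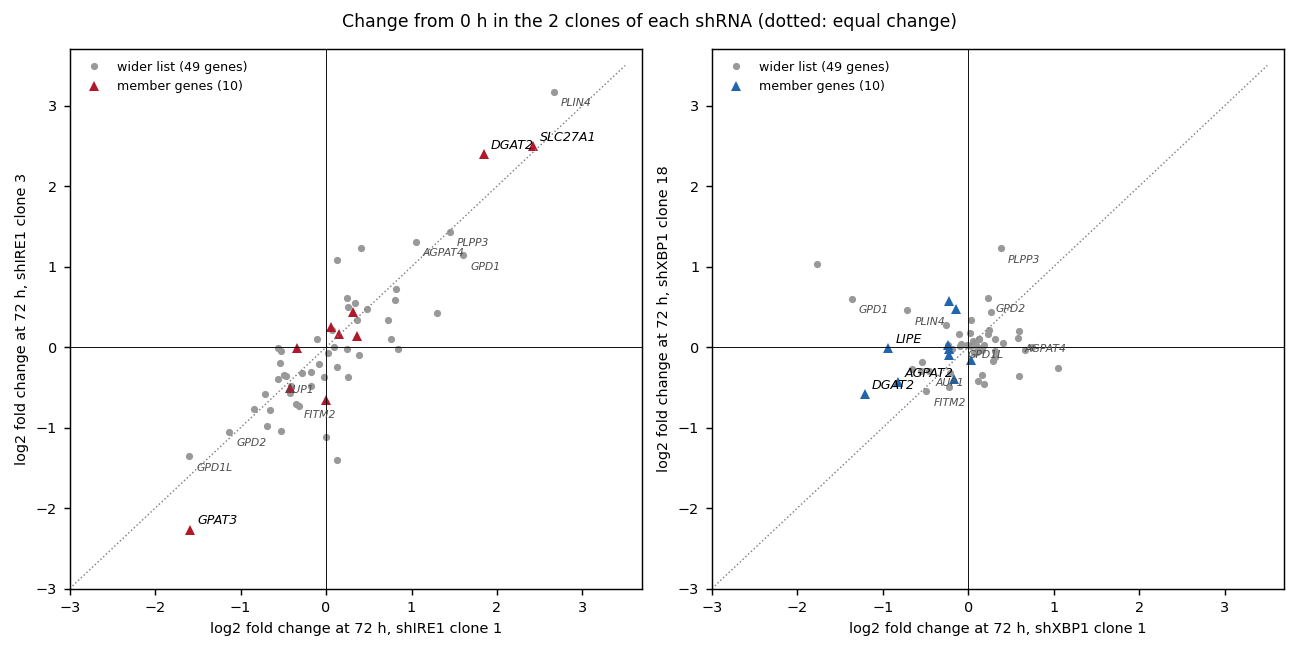
Log2 fold change at 72 h against 0 h in clone 1 (horizontal axis) and in the other clone of the same shRNA (vertical axis) for the 10 members (triangles) and for the 49 genes of the wider list tested in all 4 clones (circles), shIRE1 left and shXBP1 right. SLC27A1, DGAT2 and PLIN4 lie at the upper right and GPAT3 at the lower left after IRE1 silencing, and DGAT2 lies below 0 on both axes after XBP1 silencing.

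The genes whose mean levels over the 16 groups went most like DGAT2, among 12012 genes, were PPFIA3 (Pearson r = 0.976), FGFR4 (0.975), LAMC1 (0.971), EHD4 (0.971) and ATG7 (0.967). Those most like SLC27A1 were MMP11 (0.991), CCDC24 (0.990), TRIO (0.985), TTC28 (0.984) and TRIM16 (0.981). These groups share clones and the strong shIRE1 response, and the values describe a likeness in level only.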

How the data were processed

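The authors sequenced stranded poly(A) libraries as single-end reads of 50 bases, and the submitters' processing notes name GSNAP, R 4.1.3, edgeR 3.32.1 and limma 3.46.0 and the builds GRCh37 and hg19. The authors deposited raw read counts per gene and a table of log2 values, which equalled edgeR's log2 CPM with a prior count of 2. Whether counting used strand is not given in the sources used here, and DGAT1, DGAT2, SLC27A1, GPAT4, PLIN3, PNPLA2 and LIPE overlap exons of another gene.

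Counts were tested with edgeR 4.0.16 in R 4.3.3 (TMM, filterByExpr with a minimum count of 10 and minimum total of 15, quasi-likelihood F test, Benjamini-Hochberg over all genes tested, threshold 0.05). Changes from 0 h were fitted per clone on 12 libraries, and comparisons between clones or shRNAs on all 48. An SE is the log2 change divided by the square root of F. In the library of lowest total, 1 count was 0.0521 CPM. DESeq2 1.42.0, limma 3.58.1 on the deposited log2 table, other scalings and filters, left-out replicates, a replicate block and a GC correction were alternatives. Each tool was run on data simulated from shIRE1 clone 1, with 200 genes changed 2-fold and 1 dispersion for all genes. There edgeR, DESeq2 and limma recovered 163, 150 and 166, and 5.78%, 9.64% and 7.26% of their calls were false. With a GC slope added, edgeR recovered 150 without and 163 with the GC correction (1.96% and 5.23% false). Transcript lengths, GC and sequences came from GENCODE 44 on GRCh38, matched by gene ID. Cultures with the same replicate number did not deviate together. The members and gene lists were chosen with earlier results of these data known. Named genes were all members, the targeted genes, wider-list genes tested in all 4 clones and called alike in both shIRE1 clones at 72 h with at least 2-fold change or alike in both shXBP1 clones, and the 5 genes most like DGAT2 and SLC27A1.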

Additional observations from a re-analysis of the deposited data

Results flagged for a closer look

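Responses that differed between the shRNAs by the test of the difference itself (edgeR, shIRE1 minus shXBP1) were those of GPAT3 (-1.18, -2.40 and -2.09 at 24, 48 and 72 h), GPAT4 (0.14, 0.30 and 0.28), PLIN3 (0.58, 0.60 and 0.54), LIPE (0.55, 0.72 and 0.63), PLIN2 (-0.35 at 48 and at 72 h) and PNPLA2 (0.48 at 48 h). Changes at 72 h that differed between clones of the same shRNA were those of DGAT1 (-0.65), DGAT2 (0.56) and GPAT4 (0.20) between shIRE1 clones 3 and 1, and of DGAT2 (0.61), PLIN2 (0.77) and LIPE (0.90) between shXBP1 clones 18 and 1. The test between shRNAs does not measure the spread between clones. With the GC correction PNPLA2 at 48 h was called the other way (-0.18), and LIPE was called only at 48 h. Leaving out single libraries ended the calls between shRNAs of LIPE at 24 and 72 h, GPAT4 at 24 h and PNPLA2 at 48 h. It also ended those of DGAT1 and LIPE between clones. With 3 replicates a group, single samples were not tested as outliers.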

How the results depend on the processing

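Counts below are members called of 8 unless stated. The share of all genes called under each other setting was not counted, so the counts only describe how the calls of the listed genes moved. With all 48 libraries in 1 fit, 2 rather than 5 were called in shIRE1 clone 1 at 72 h and 4 rather than 7 in shIRE1 clone 3 at 48 h. In shXBP1 clone 1 at 24 h the count of 2 became 1 with a replicate block, 5 with the GC correction and 0 with only the 6 libraries compared, and at 48 h the count of 3 became 5 and 1 under the last 2 of these. In shXBP1 clone 18 the count at 48 h went from 0 to 1 with only 6 libraries, and at 72 h from 1 to 2 without a filter and to 0 with the block, with limma or with only 6 libraries. The wider list there went from 5 called to 10 without a filter, 8 with DESeq2, 8 with the GC correction, 0 with only 6 libraries and 10 with all 48. From 24 to 72 h in shIRE1 clone 1 the count of 0 became 1 (DESeq2's size factors, limma or all 48 libraries), 2 (no filter, or only 6 libraries) or 3 (GC correction), and in shXBP1 clone 18 it became 3 (no filter) or 2 (all 48). Between shRNAs at 24 h, 2 rather than 4 were called with shIRE1 clone 3 and shXBP1 clone 18 alone. Between clones, 5 and 6 rather than 3 and 3 of 10 members were called with the GC correction. The replicate numbers do not pair the samples, and the replicate block moved no other count past 1.5 times. The cause of these shifts was not tested, beyond the smaller number of libraries in some fits.

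Leaving out 1 replicate in turn gave counts of 4 to 6 in shIRE1 clone 3 at 48 h, 0 to 3, 0 to 4 and 2 to 4 in shXBP1 clone 1 at 24, 48 and 72 h, 0 to 1 and 0 to 2 in shXBP1 clone 18 at 48 and 72 h (2 to 11 for the wider list), 0 to 2 from 24 to 72 h in shIRE1 clone 1, 2 to 4 between shRNAs at 24 h and 2 to 5 between the shIRE1 clones. DGAT2 in shXBP1 clone 18 from 24 to 72 h went from 0.13 to -0.017 without the library that stood apart. Signs turned with the GC correction in 41 of 230 member values, of which 26 were called with neither fit. The other 15 were those of AGPAT2 (shIRE1 clone 1 at 24 h -0.25, clone 3 at 24 h -0.31, shIRE1 minus shXBP1 -0.63 and -0.47 at 48 and 72 h), DGAT1 (shXBP1 clone 1 at 48 and 72 h 0.31 and 0.25, shIRE1 minus shXBP1 at 48 h -0.46) and PNPLA2 (shIRE1 clone 3 at 24 and 48 h -0.28 and -0.16, shXBP1 clone 1 0.21, 0.31 and 0.31, shIRE1 minus shXBP1 -0.23, -0.18 and -0.21). Under other settings, signs turned only where the value was called in neither fit, which was so for 4 of 110 values without the library that stood apart (GPAT3 in clone 18 at 72 h among them), 87 of 2000 on leaving out another replicate and 1 to 5 per setting otherwise. Depth limits GPAT3 most, since its lowest library held 15 counts.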
